A study of Mus musculus with 70 samples.

Results

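Tail-to-lung-metastases cell lines of the sixth in vivo passage (T-LM P6) were compared with the parental line they were derived from (P0). Samples were taken by their titles: the 2 P0 samples of the first array set and the 4 T-LM P6 samples, together 6 of the 70 arrays of the series. RENCA is a mouse renal adenocarcinoma line of BALB/c origin, and the cells of both groups carried a lentiviral GFP vector. P0 cells were kept in culture and had not been in a mouse. T-LM P6 cells had gone through 6 rounds of tail-vein injection into wild type BALB/c females of 6 weeks, digestion of the lung metastases with collagenase, and culture for about 2 weeks, during which purity was followed by fluorescence microscopy or flow cytometry and ended when no GFP-negative cells were seen. Each T-LM P6 sample is 1 cell line, and the labels tie no line to a mouse. They also do not say whether the 2 P0 samples were separate cultures, so the spread between these 2 may be technical. The p-values rest on a spread pooled over the 21 arrays fitted, P0 and the tail-vein passages T-LM P2 to P6. They thus reflect differences between lines of other passages as well as between the samples compared. Growth in mice, tissue digestion and recovery into culture all separate the groups and cannot be told apart.

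Cells injected into the tail vein reach the lung as their first capillary bed, where they must arrest, survive, leave the vessel and grow without a primary tumour. Adhesion receptors, matrix proteins and the proteases that cut them, cytokines and metabolic enzymes are the gene groups most often studied in these steps. Interstitial collagens and smooth muscle actin are made in quantity by fibroblasts and pericytes, and carcinoma cells that take on mesenchymal features can make them as well. In bulk RNA of a cell line, fewer cells of a type and less RNA per cell cannot be told apart.

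Each level below is the log2 of the processed array signal relative to the 75th percentile of commonly detected probes on that array, so that 0 is a bright probe and -8 lies in the background. Each change is the T-LM P6 level minus the P0 level on the log2 scale, with its standard error (SE) from limma, and a gene was called when its adjusted p (Benjamini-Hochberg, 2-sided) was 0.01 or less. Genes were represented by their brightest probe. A gene was tested when this probe passed background on 2 or more of the 21 fitted arrays, of which 19 were T-LM. A gene dim in P0 could thus enter by its T-LM level alone. In the gene lists below, totals beside called members count tested members only. Where the scanner software flagged a probe as well above background on no P0 array, the size is given as at least N-fold, with each dim P0 value raised to the lowest signal that passed background on its array.

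Of 12046 gene symbols tested, 1093 were called, which is 9.07%. Of these, 898 (7.45% of those tested) were higher in T-LM P6 and 195 (1.62%) were lower, and the median change of all tested symbols was 0.02. The higher group was dominated by genes without a measurable P0 level: 637 of the 898 were well above background on neither P0 array, and 529 of these passed background on all 4 T-LM P6 arrays. By contrast, 208 higher genes were measured on all 6 arrays. The lower group was of another kind, since 157 of 195 were measured on all 6 arrays and 7 dropped from both P0 arrays to no T-LM P6 array. Sizes differed as well, with a median absolute change of 2.71 for higher and 1.45 for lower genes.

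The P0 and T-LM P6 samples of all 1093 called genes did not overlap, where 46.8% of all tested symbols did not overlap either. A single slide held 1 P0 and 1 T-LM P6 array (P0 replicate 2 and T-LM P6 replicate 1), and the median differences within this pair were 2.64 for higher and -1.36 for lower genes. Of 21374 probes tested, 1562 (7.31%) were called, 5.9% higher and 1.41% lower. The count fell to 683 without P0 replicate 1 and 789 without P0 replicate 2, against 1221 to 1350 without any single T-LM P6 sample. Leaving out a P0 array leaves 1 sample in that group, which is then assumed to vary like the other groups. With slide as a fixed block 628 were called. Where all dim values were raised to a common floor, 833 probes were called, 62.1% of them higher, against 80.7% higher in the main comparison. The share of higher calls was 62.8% when each array was scaled on all its probes, which moved the median of all probes by -0.22.

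**Figure D1:**
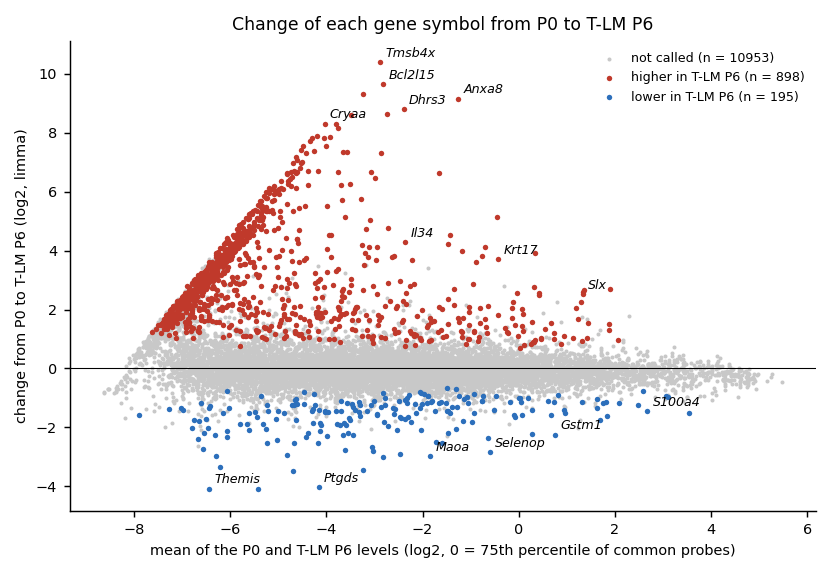
Change from P0 to T-LM P6 (log2, vertical axis) against the mean of the P0 and T-LM P6 levels (log2, horizontal axis), with 1 point for each of 12046 gene symbols. Red points are the 898 called higher and blue points the 195 called lower; the upper edge of red points, rising from the left, is made of genes that lay at background in P0.

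Signal was lower on the P0 arrays. The 75th percentile of the processed intensity over all probes was 195 and 269 on P0 and 315 to 590.2 on T-LM P6 arrays. Between 27.9% and 29.8% of probes on P0 arrays and between 31.6% and 37.2% on T-LM P6 arrays were well above background. Over probes, the 2 P0 arrays correlated at 0.990, the T-LM P6 arrays with each other at 0.976 to 0.992, and P0 with T-LM P6 arrays at 0.913 to 0.944. The part of the lower P0 signal in the rises from background was not tested. T-LM P6 replicate 2 held the highest of the 4 levels in 396 of the 898 higher genes (44.1%, against 38.3% of all tested symbols), and replicate 4 held the lowest in 417 (46.4%, against 34.9%).

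The labelled cell type was checked first on markers of other cells. Simple epithelial keratins were bright in every sample: Krt18 levels were 4.05 and 4.18 in P0 and 3.93, 3.62, 3.51 and 3.87 in T-LM P6, and Krt8 levels were 1.79 and 1.73 in P0 and 1.53, 1.38, 1.48 and 1.09 in T-LM P6. Neither was called (changes -0.38 ± 0.22 and -0.39 ± 0.29). Of 14 renal epithelial markers, 3 were above background in P0, namely Pax8, Krt8 and Krt18. Of the 7 tested, Cdh1 alone rose, and its T-LM P5 mean was still -7.95. The untested Pax2, Lhx1, Cdh16, Lrp2, Slc34a1, Havcr1 and Umod were well above background on no P0 or T-LM P6 array. Among 11 fibroblast and pericyte markers, none was above background in P0 and 10 were in at least 1 T-LM P6 sample. Of the 9 tested, 7 rose, and their summed linear level went from 0.0585 to 0.0638 in P0 to 2.35 to 7.98 in T-LM P6, highest in replicate 2 and lowest in replicate 4 for each of the 7. Of 9 lung epithelial markers tested, 4 rose (Sftpc, Sftpd, Ager and Foxj1), with summed levels of 0.576 to 0.872 in P0 and 1.27 to 1.96 in T-LM P6. Lamp3, which was not called (0.58 ± 0.20, adjusted p = 0.0711), made up the largest part of these linear sums. Sftpc, the alveolar type 2 cell surfactant protein C, had levels of -8.37 and -7.86 in P0 and -3.64, -0.88, -2.57 and -3.95 in T-LM P6. Thus Sftpc was at background in both P0 samples and measured in all 4 T-LM P6 samples, a rise of at least 9.15-fold (adjusted p = 0.000347), whereas Sftpa1 and Nkx2-1 were not well above background on any of the 6 arrays.

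Leukocyte markers moved less evenly. Of 13 tested macrophage markers, 4 rose (Ptprc, Tyrobp, Fcer1g and Cd14), with summed levels of 2.48 to 3.07 in P0 and 3.77 to 4.38 in T-LM P6. None of these 4 calls held under every alternative that tested it, in every leave-one-out fit or with dim values raised to a floor. Cd68, with means of 1.16 in P0 and 1.22 in T-LM P6, made up the largest part of the linear sums. It was not called (0.06 ± 0.28, adjusted p = 0.948), so the sums show little of the 4 rises. Tyrobp, an adaptor of myeloid receptors, had levels of -8.41 and -8.00 in P0 and -1.83, -1.33, -2.68 and -3.09 in T-LM P6, at least 13.2-fold higher (adjusted p = 0.00162). Csf1r, the receptor by which macrophages are known, had levels of -4.22 and -3.38 in P0 and -2.91, -3.00, -2.59 and -3.62 in T-LM P6, which was no call (0.77 ± 0.88, adjusted p = 0.702). Of 4 lymphocyte markers, 2 (Lck and Cd79b) and both tested mast cell and megakaryocyte markers (Pf4 and Ppbp) rose. Of 9 endothelial markers 3 were tested, and Cldn5 rose while Kdr and Vwf were not called. Kdr was well above background on all 6 arrays, with means of -0.73 in P0 and -1.17 in T-LM P6. Cdh5 and Emcn passed background on 1 T-LM P6 array each, and Pecam1, Tek, Tie1 and Erg on no array of the 2 groups. The part of these other cell types in the results below was not tested.

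**Figure D2:**
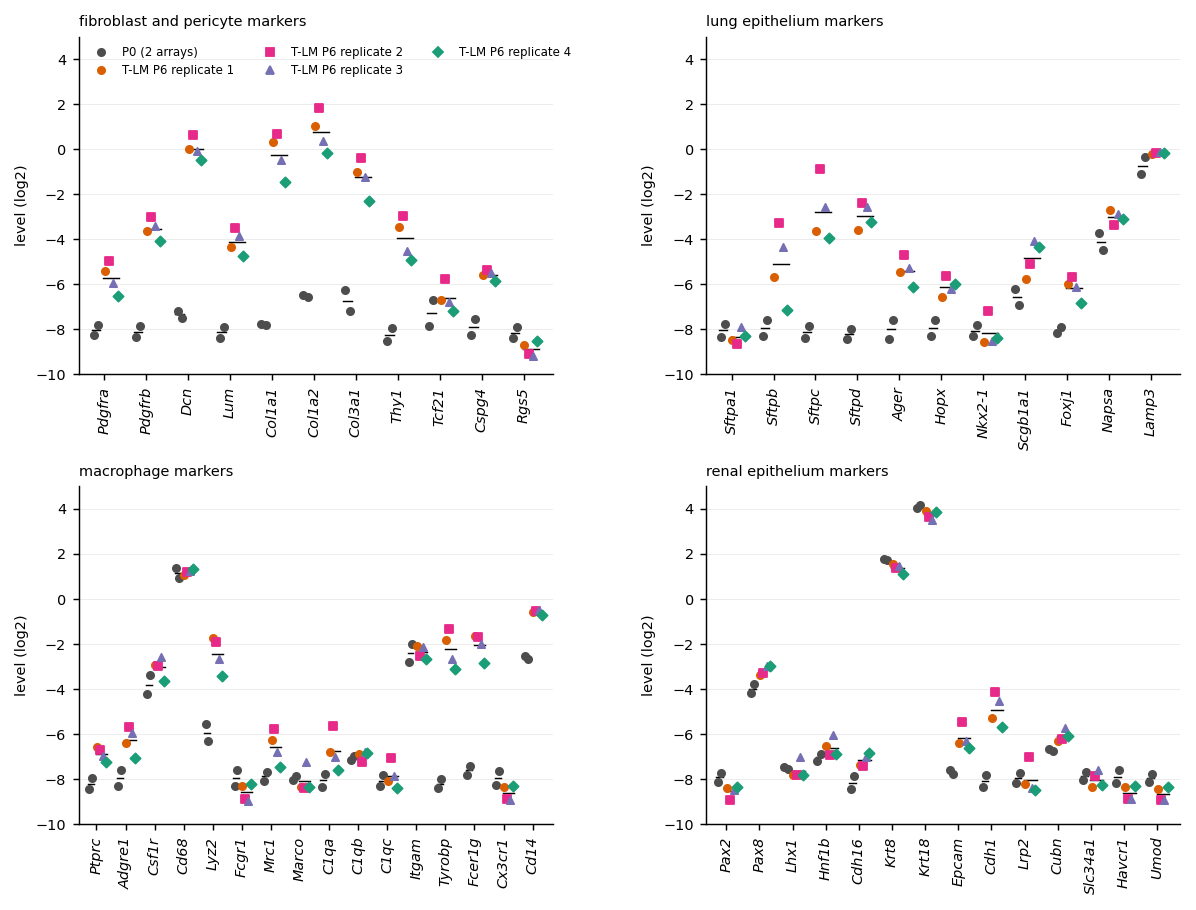
Levels (log2, vertical axis) of fibroblast and pericyte, lung epithelium, macrophage and renal epithelium markers in the 2 P0 arrays and the 4 T-LM P6 samples, with a bar at each group mean. Fibroblast markers lie near -8 in P0 and, where they rise, are highest in T-LM P6 replicate 2, while Krt8, Krt18 and Cd68 are bright in all 6 samples.

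The 10 largest rises were ranked by fitted change, which for most of them rests on P0 values at background. On the bounds the order differs, and Col1a2, which is outside the 10, has a higher bound than Cryaa, which is among them. Besides thymosin beta 4 (Tmsb4x), the Bcl2 family member Bcl2l15 and the chemokines Ccl6 and Cxcl14, they held a calcium-dependent membrane binder, a retinoid enzyme, a lens chaperone and smooth muscle proteins. Anxa8, an annexin, had levels of -4.89 and -6.78 in P0 and 3.55, 3.16, 3.23 and 3.32 in T-LM P6, a change of 9.15 ± 0.51 (SE; adjusted p = 5.22e-10). Dhrs3, which reduces retinal to retinol, had levels of -5.77 and -7.82 in P0 and 2.33, 1.81, 1.87 and 1.99 in T-LM P6, a change of 8.79 ± 0.71. Both genes were well above background on 1 of the 2 P0 arrays, so these sizes rest in part on a background value, and both were tight in T-LM P6, with no overlap. The same holds for the P0 values of Etv5, Fabp4, Mmp3, S100a8 and Wt1 below. Cryaa, the lens chaperone alpha-A crystallin, had levels of -8.46 and -7.92 in P0 and 0.29, 0.03, 0.15 and -0.03 in T-LM P6, at least 67.0-fold higher (adjusted p = 2.48e-13). The 4 lines were almost at the same level for Cryaa.

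Genes of actin assembly and contraction rose in 2 lists. Of 15 contractile and smooth muscle genes tested, 6 rose, with a median change of 1.45 over the list (1.17 with dim members at their bound). Acta2, smooth muscle actin, had levels of -6.29 and -7.81 in P0 and 2.01, 2.91, 0.77 and 0.58 in T-LM P6. Myl9, its regulatory light chain partner in contraction, had levels of -7.62 and -7.97 in P0 and 1.47, 2.28, -0.17 and -0.31 in T-LM P6. Cnn1, calponin, had levels of -6.92 and -7.24 in P0 and 0.38, 1.30, -1.61 and -1.75 in T-LM P6. All 3 were at background in P0 and differed among the T-LM P6 lines by more than 2 log2 units, with replicates 1 and 2 above replicates 3 and 4. The sizes were at least 184-fold for Acta2 (adjusted p = 3.13e-05), 109-fold for Myl9 (adjusted p = 0.000124) and 46.3-fold for Cnn1 (adjusted p = 0.000832). Actg2, the gamma smooth muscle actin, followed with at least 23.5-fold, and Mylk, the myosin light chain kinase, had a change of 2.41 ± 0.74 that was not called (adjusted p = 0.0362). Replicate 2 was the highest line in all 6 and replicate 4 the lowest in 5 of the 6, the order of the fibroblast markers above, and 3 of the 6 stayed past the threshold under every alternative that tested them.

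The other list held actin regulators, several of them known from white blood cells. Of 18 thymosins and actin-bundling or capping proteins, 5 rose (median change 0.47). Lcp1, or L-plastin, an actin bundler, had levels of -7.19 and -7.85 in P0 and -0.89, -0.48, -0.91 and -1.03 in T-LM P6. Coro1a, a coronin, had levels of -7.15 and -7.33 in P0 and -3.77, -3.68, -3.76 and -3.80 in T-LM P6. The 4 lines lay close together for both, and the changes were at least 35.0-fold (adjusted p = 1.24e-08) and at least 4.6-fold (adjusted p = 6.09e-06). Was, the Wiskott-Aldrich protein that activates branched actin assembly, rose by at least 3.18-fold (adjusted p = 4.38e-05). Replicate 2 was the highest line in 4 of the 5 rises and replicate 4 the lowest in 4. Of the 5 called members, 4 stayed past the threshold under every alternative that tested them.

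Of 32 regulators of small GTPases tested, 10 rose and 2 fell, with a median change of 0.45, and replicate 2 was the highest line in 3 of the 10 rises. Rac2, the Rac isoform of blood cells, had levels of -8.25 and -7.82 in P0 and -1.86, -2.25, -1.55 and -2.10 in T-LM P6. The 4 lines stood within 1 log2 unit of each other and far from P0, a rise of at least 16.2-fold (adjusted p = 6.16e-11). Arap3, a GTPase-activating protein for Arf6 and RhoA, rose by at least 4.46-fold (adjusted p = 7.8e-08), the exchange factor Arhgef3 by at least 3.78-fold (adjusted p = 3.51e-08) and Arhgap33 by at least 2.83-fold (adjusted p = 2.21e-06). Rac1, Rhoa and Cdc42, the widely expressed members, were tested and not called. Rasgrp2, an exchange factor for Rap1, had levels of -0.47 and -0.20 in P0 and -2.94, -3.01, -3.02 and -2.53 in T-LM P6 and fell by 2.54 ± 0.23 on the log2 scale (adjusted p = 2.83e-07). The exchange factor Plekhg4 dropped out of measurement, at least 3.78-fold lower (adjusted p = 2.09e-05). Raising dim values to a floor left 2 of the 12 calls.

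Skeletal muscle genes went both ways. Of 15 tested, 5 rose and 2 fell. Chrna1, the muscle acetylcholine receptor subunit, had levels of -8.05 and -7.72 in P0 and -4.27, -2.74, -3.87 and -4.04 in T-LM P6, at least 4.68-fold higher (adjusted p = 4.78e-06), and Acta1, skeletal actin, had levels of -7.46 and -7.72 in P0 and -2.89, -1.47, -3.30 and -3.99 in T-LM P6, at least 8.25-fold higher (adjusted p = 0.000577). Replicate 2 was the highest line for both. Myl1, a fast muscle light chain, had levels of -2.93 and -2.89 in P0 and -7.17, -3.97, -5.17 and -5.41 in T-LM P6, so that replicate 2 was again the highest, but here it was nearest to P0 (change -2.52 ± 0.60, adjusted p = 0.00797). Klhl30 levels were 1.18 and 1.59 in P0 and -0.35, -0.87, -0.97 and -1.17 in T-LM P6, a fall of 2.22 ± 0.39 with no overlap (adjusted p = 0.000637). None of the 7 calls held under every alternative that tested it, and raising dim values to a floor left 2.

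Extracellular matrix genes rose in several lists. Of 24 matrix glycoproteins and proteoglycans tested, 9 rose, and of 14 interstitial collagens 6 rose, with median changes of 2.16 and 2.59 (1.41 and 1.94 with dim members at their bound). Fn1, fibronectin, had levels of -8.29 and -7.60 in P0 and 0.49, 0.75, 0.44 and -0.29 in T-LM P6. Dcn, decorin, which binds collagen fibrils, had levels of -7.17 and -7.49 in P0 and 0.00, 0.64, -0.08 and -0.49 in T-LM P6. Mgp, the matrix Gla protein, had levels of -8.45 and -8.05 in P0 and -0.14, 0.07, -1.13 and -1.66 in T-LM P6. P0 lay at background for all 3, and replicate 2 was the highest and replicate 4 the lowest line for each. The rises were at least 78.9-fold for Fn1 (adjusted p = 6.21e-05), 62.8-fold for Dcn (adjusted p = 2.18e-07) and 37.8-fold for Mgp (adjusted p = 0.000502). Ccn2, the connective tissue growth factor, was measured in P0, with levels of -6.10 and -3.83 in P0 and 1.85, 2.86, 1.29 and 0.62 in T-LM P6, a change of 6.62 ± 0.99 (adjusted p = 0.000105). Its P0 pair differed by more than 2 log2 units, yet no sample of the groups overlapped.

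Among the collagens, Col1a1 levels were -7.76 and -7.80 in P0 and 0.31, 0.68, -0.45 and -1.46 in T-LM P6, and Col1a2 levels were -6.49 and -6.56 in P0 and 1.04, 1.86, 0.38 and -0.15 in T-LM P6. These 2 chains of type I collagen rose by at least 52.9-fold (adjusted p = 0.000292) and 107-fold (adjusted p = 0.000641). Col3a1 of type III collagen rose by at least 26.5-fold (adjusted p = 0.00373). Col6a3 of the microfibrillar type VI had levels of -8.20 and -7.84 in P0 and -2.06, -1.59, -1.63 and -2.27 in T-LM P6, at least 16.8-fold higher (adjusted p = 1.51e-08), with a narrower spread over the lines than the type I chains. Col5a3 had a change of 2.85 ± 0.72 and was not called (adjusted p = 0.0112).

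Basement membrane genes were split. Of 22 tested, 6 rose and 1 fell, with a median change of 0.80 (0.09 with dim members at their bound). Lamb1, a laminin beta chain, had levels of -8.28 and -7.61 in P0 and -1.81, -0.84, -2.11 and -2.66 in T-LM P6, and Col4a1, of type IV collagen, had levels of -8.24 and -7.77 in P0 and -2.97, -1.58, -3.07 and -3.95 in T-LM P6. Both ran from replicate 2 down to replicate 4 and rose by at least 17.1-fold (adjusted p = 0.000228) and 8.36-fold (adjusted p = 0.000592). Nidogen (Nid1) rose by at least 6.1-fold (adjusted p = 0.00223). Lamb3, a chain of the epithelial laminin-332, had levels of -6.65 and -7.22 in P0 and -2.85, -2.59, -2.61 and -3.63 in T-LM P6, at least 8.2-fold higher (adjusted p = 0.000114). Fbln1, fibulin 1, went the other way, with levels of -0.69 and -0.82 in P0 and -2.14, -2.60, -1.81 and -2.20 in T-LM P6, a fall of 1.43 ± 0.28 (adjusted p = 0.00145); 1 of its 2 tested probes was called.

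Collagen processing followed the chains in part. Of 27 modifying enzymes and chaperones tested, 4 rose (median change 0.45), namely the endoplasmic reticulum prolyl isomerase Fkbp10 (at least 30.1-fold, adjusted p = 0.000181), reticulocalbin Rcn3 (at least 30.0-fold, adjusted p = 0.000503), the procollagen N-proteinase Adamts2 (at least 12.9-fold, adjusted p = 0.000649) and P3h4 (at least 9.19-fold, adjusted p = 0.00214). Replicate 2 was the highest and replicate 4 the lowest line in each of the 4. Over the 4 matrix lists, replicate 2 was the highest line in 22 of the 25 rises and replicate 4 the lowest in 24. This was the order of the fibroblast and pericyte markers, of which Dcn, Lum, Col1a1, Col1a2 and Col3a1 are themselves matrix genes. Pdgfrb, the pericyte receptor, rose by at least 5.39-fold (adjusted p = 3.92e-05), Cspg4 by at least 1.29-fold (adjusted p = 0.000472), and Pdgfra had a change of 2.32 ± 0.92 that was not called (adjusted p = 0.122). Of the 26 calls in these lists, 4 held under every alternative that tested them, and slide as a fixed block left 10.

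**Figure D3:**
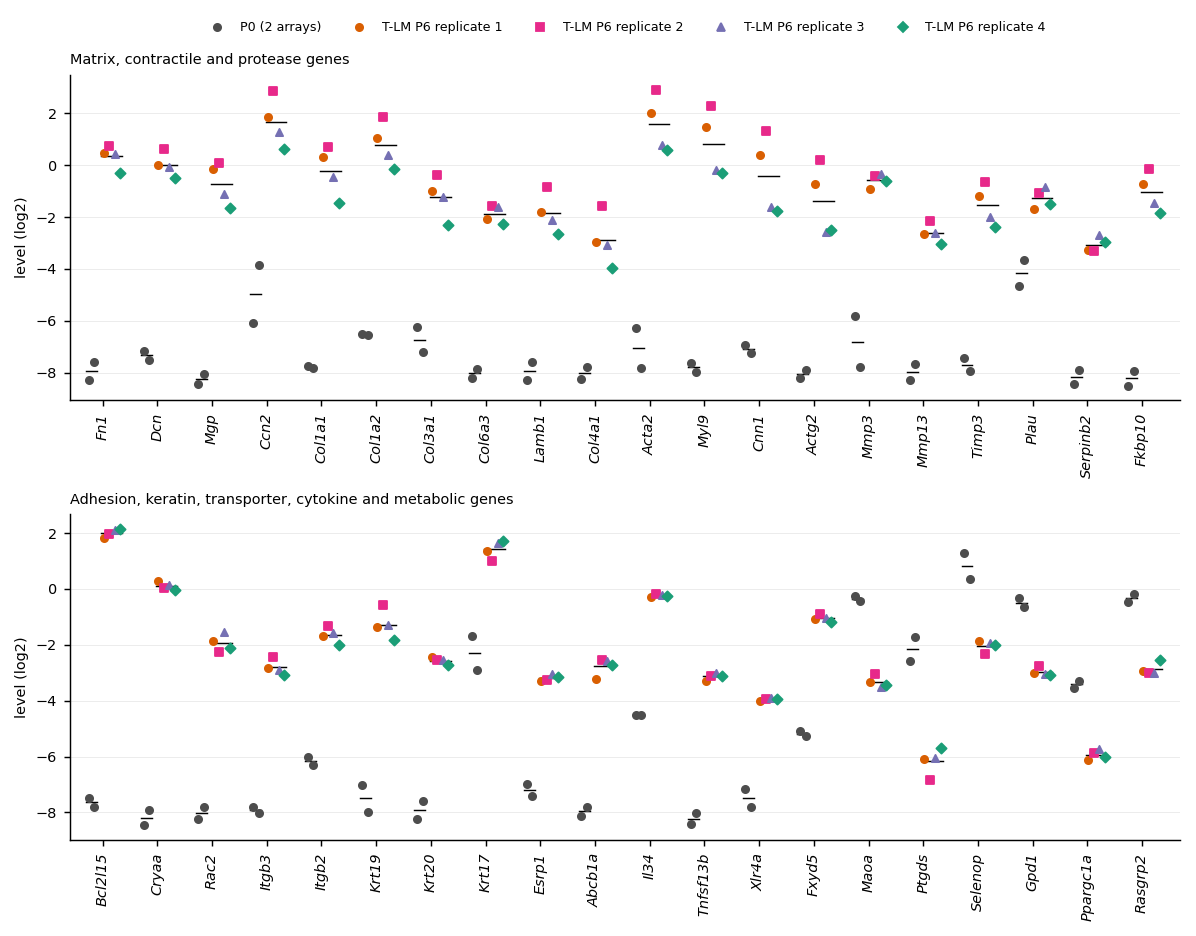
Levels (log2, vertical axis) of 40 genes in the 2 P0 arrays (grey) and the 4 T-LM P6 samples (1 colour and shape each), with a bar at each group mean. In the upper row replicate 2 (squares) is mostly the highest and replicate 4 (diamonds) the lowest, whereas Bcl2l15, Cryaa, Il34, Krt20 and Xlr4a in the lower row have nearly the same level in all 4 lines.

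Matrix proteases had the largest share of called members among the 47 gene lists, but this share is not read as a result. Of 19 metalloproteinases, ADAMTS proteases and inhibitors tested, 12 rose, with a median change of 2.42 (1.79 with dim members at their bound). Of these rises, 8 were well above background on neither P0 array and could be tested only through T-LM arrays. Of the 12, 5 are neighbours among the tested genes, in the order Mmp13, Mmp12, Mmp3, Mmp10 and Mmp8 on chromosome 9. They were picked out as neighbours after their values were seen, and untested genes may lie between them. Stretches of 250 bases before the RefSeq start (assembly GRCm38.p6, plus strand) were searched in all 5. Printed are the 4 that held the motif marked here. Mmp12 has 2 RefSeq windows, and the window with the most matches was taken. Capitals mark TGANTCA, the core letters of the AP-1 binding motif, which reads the same on both strands.
Mmp13, chr9:7272264-7272513: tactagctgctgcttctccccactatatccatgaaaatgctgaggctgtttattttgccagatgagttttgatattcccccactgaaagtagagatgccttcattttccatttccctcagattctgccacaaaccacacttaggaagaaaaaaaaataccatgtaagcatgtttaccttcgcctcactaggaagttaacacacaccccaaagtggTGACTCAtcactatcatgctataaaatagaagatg
Mmp12, chr9:7347124-7347373: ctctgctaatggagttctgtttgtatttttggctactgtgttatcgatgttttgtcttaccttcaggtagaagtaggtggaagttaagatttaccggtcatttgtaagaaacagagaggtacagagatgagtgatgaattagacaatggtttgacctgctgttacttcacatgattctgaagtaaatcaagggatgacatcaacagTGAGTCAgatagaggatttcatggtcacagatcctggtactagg
Mmp3, chr9:7445572-7445821: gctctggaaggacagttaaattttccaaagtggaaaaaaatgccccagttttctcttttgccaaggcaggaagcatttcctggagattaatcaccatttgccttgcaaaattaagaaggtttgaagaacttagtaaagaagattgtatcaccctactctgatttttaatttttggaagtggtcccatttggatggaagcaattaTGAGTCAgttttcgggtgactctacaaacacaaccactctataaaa
Mmp10, chr9:7502092-7502341: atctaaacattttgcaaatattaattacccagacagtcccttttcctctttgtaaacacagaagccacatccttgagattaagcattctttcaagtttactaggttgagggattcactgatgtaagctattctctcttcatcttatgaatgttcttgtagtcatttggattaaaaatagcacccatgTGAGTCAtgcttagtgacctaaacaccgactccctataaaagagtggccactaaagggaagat

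Each of the 4 windows held 1 match, with its first base 35, 44, 46 and 63 bases before the start of Mmp13, Mmp12, Mmp3 and Mmp10, and the window of Mmp8 held none. Over all RefSeq genes 7.82% had the motif within 250 bases before a start, against 6 of the 17 protease list genes with a window (35.3%). Of these 6, 4 are the paralogues printed here. A match is a description of these letters and no binding was measured.

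Mmp13, collagenase 3, had levels of -8.28 and -7.67 in P0 and -2.66, -2.17, -2.61 and -3.04 in T-LM P6, at least 10.1-fold higher (adjusted p = 8.09e-07). Mmp12, the macrophage elastase, had levels of -8.37 and -7.79 in P0 and -3.14, -3.21, -3.72 and -4.51 in T-LM P6, at least 4.96-fold higher (adjusted p = 0.00113). Mmp3, stromelysin 1, had levels of -5.83 and -7.77 in P0 and -0.91, -0.42, -0.34 and -0.62 in T-LM P6, a change of 6.23 ± 0.84 (adjusted p = 3.66e-05). The 4 lines agreed within 1 log2 unit for Mmp13 and Mmp3 and spread further for Mmp12, where replicate 4 was the lowest. Mmp10, stromelysin 2, was already measured in P0, with levels of -1.68 and -2.30 in P0 and -0.27, 0.15, -0.15 and -0.04 in T-LM P6, and had the smallest change of the 5 (1.91 ± 0.37, adjusted p = 0.00145). Mmp8, the neutrophil collagenase, had levels of -8.32 and -7.60 in P0 and -3.18, -2.83, -3.04 and -3.13 in T-LM P6, at least 7.52-fold higher (adjusted p = 6.14e-05). Elsewhere in the genome, the membrane-anchored protease Adam8 rose by at least 15.2-fold (adjusted p = 5.86e-06), and Timp3, an inhibitor bound to matrix, by at least 21.1-fold (adjusted p = 0.000456). Timp1 and Timp2 were tested and not called. Of the 12 calls, 4 held under every alternative that tested them.

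Urokinase and its receptor rose from levels that P0 already had. Of 10 genes of the plasminogen activator system tested, 4 rose, with a median change of 1.72. Plau, the urokinase, had levels of -4.66 and -3.67 in P0 and -1.68, -1.06, -0.84 and -1.50 in T-LM P6, a change of 2.90 ± 0.41 (adjusted p = 5.88e-05). Its receptor Plaur had levels of -2.97 and -2.43 in P0 and -1.19, -0.49, -0.89 and -1.40 in T-LM P6, a change of 1.71 ± 0.33 (adjusted p = 0.00131). Protease and receptor thus lay higher in all 4 lines than in both P0 samples. The inhibitor Serpinb2 started from background and rose by at least 7.44-fold (adjusted p = 9.79e-05).

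Of 18 integrin chains tested, 7 rose, 5 of them beta chains, with a median change of 1.10 (0.46 with dim members at their bound). Itgb3, the partner of the alpha V chain, had levels of -7.81 and -8.01 in P0 and -2.84, -2.43, -2.90 and -3.07 in T-LM P6, at least 8.85-fold higher (adjusted p = 8.01e-11). Itgb2, the beta chain of leukocyte integrins, had levels of -6.02 and -6.31 in P0 and -1.70, -1.33, -1.56 and -2.01 in T-LM P6, at least 18.6-fold higher (adjusted p = 4.21e-10), whereas its partner chains Itgal and Itgam were tested and not called. Itgb7 was measured in both groups, with levels of -3.03 and -3.31 in P0 and 0.66, 1.04, 0.75 and 0.82 in T-LM P6, a change of 3.99 ± 0.31 (adjusted p = 3.54e-08). The lines stood close together for all 3 genes. Among alpha chains, the laminin receptor chain Itga6 rose by at least 2.33-fold (adjusted p = 0.000379). The collagen receptor chain Itga11 had a change of 2.69 ± 0.83 and was not called (adjusted p = 0.0395). Itgb1, the most common beta chain, was not called either.

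Epithelial genes also rose, beside the mesenchymal ones. Of 12 keratins tested, 7 rose, with a median change of 1.56 (0.48 with dim members at their bound). Krt19, a keratin of ducts, had levels of -7.01 and -7.98 in P0 and -1.38, -0.58, -1.31 and -1.83 in T-LM P6. Krt7 had levels of -8.16 and -7.79 in P0 and -2.60, -1.86, -2.46 and -3.22 in T-LM P6, and Krt20 had levels of -8.22 and -7.59 in P0 and -2.42, -2.56, -2.56 and -2.72 in T-LM P6. P0 was at background for all 3, and Krt20 was nearly identical in the 4 lines while Krt19 and Krt7 were highest in replicate 2. The rises were at least 25.6-fold for Krt19 (adjusted p = 9.69e-10), 10.7-fold for Krt7 (adjusted p = 1.24e-07) and 10.5-fold for Krt20 (adjusted p = 7.58e-10). Krt17, a keratin of injured and basal epithelium, was measured in P0 and had levels of -1.67 and -2.90 in P0 and 1.35, 1.00, 1.65 and 1.71 in T-LM P6, a change of 3.72 ± 0.31 (adjusted p = 8.3e-08).

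Of 23 cadherins, tight junction genes and transition regulators, 4 rose and 1 fell. Esrp1, an epithelial splicing factor, had levels of -6.99 and -7.43 in P0 and -3.31, -3.25, -3.06 and -3.16 in T-LM P6, at least 6.78-fold higher (adjusted p = 5.53e-11). The tight junction gene Cldn7 rose by at least 5.18-fold (adjusted p = 3.86e-06), E-cadherin (Cdh1) by at least 2.06-fold (adjusted p = 0.000214) and the epithelial transcription factor Grhl2 by at least 1.33-fold (adjusted p = 0.000933). Cdh1 levels were -8.35 and -7.84 in P0 and -5.31, -4.13, -4.52 and -5.70 in T-LM P6, near the limit of measurement even in T-LM P6. P-cadherin (Cdh3) had levels of -2.75 and -2.77 in P0 and -5.16, -4.58, -4.45 and -4.51 in T-LM P6 and fell by 1.92 ± 0.38 (adjusted p = 0.00164). N-cadherin (Cdh2) had a change of 2.95 ± 0.93 and was not called (adjusted p = 0.0442). Among 22 annexins and S100 proteins, 3 rose and 1 fell: besides Anxa8, S100a14 of epithelia rose by at least 6.27-fold (adjusted p = 5.73e-08) and S100a8, a subunit of calprotectin, by 3.99 ± 0.67 (adjusted p = 0.000388), whereas S100a4 had levels of 3.31 and 3.48 in P0 and 1.98, 2.06, 1.75 and 2.01 in T-LM P6 and fell by 1.45 ± 0.35 (adjusted p = 0.00823, 1 of 2 tested probes called).

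Chemokines formed another group with many calls. Of 11 CC chemokines 6 rose, and of 11 CXC or CX3C chemokines 5 rose, with median changes of 2.97 and 1.55. In each list 4 of the rises were well above background on neither P0 array. Such genes were tested only through T-LM arrays, so these shares are not read as a result. Ccl9, next to Ccl6 among the tested genes, had levels of -8.29 and -7.77 in P0 and -1.13, -1.18, -1.45 and -1.58 in T-LM P6. Ccl3, next in the same run, had levels of -8.12 and -7.63 in P0 and -2.76, -2.76, -2.38 and -3.38 in T-LM P6. They rose by at least 24.6-fold (adjusted p = 0.00041) and 8.79-fold (adjusted p = 0.00262). Ccl8, a monocyte attractant, was measured in both groups, with levels of -4.91 and -4.71 in P0 and -1.06, -1.73, -0.87 and -0.92 in T-LM P6, a change of 3.66 ± 0.39 (adjusted p = 2.03e-06). Pf4, platelet factor 4, had levels of -8.43 and -7.99 in P0 and -0.36, -0.05, -0.37 and -1.11 in T-LM P6, at least 44.6-fold higher (adjusted p = 5.98e-05), and Ppbp, its platelet companion, rose by at least 2.06-fold (adjusted p = 0.000147), while the megakaryocyte markers Itga2b, Gp9 and Gp1ba were not above background. Cxcl12, the ligand of Cxcr4, rose by at least 13.3-fold (adjusted p = 0.00941), and 1 of its 2 tested probes was called. Of the 11 chemokine calls, 5 held under every alternative that tested them.

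Of 15 interleukins, colony-stimulating factors and TNF family ligands, 6 rose. Il34, the second ligand of the Csf1 receptor, had levels of -4.50 and -4.52 in P0 and -0.27, -0.17, -0.22 and -0.26 in T-LM P6, a change of 4.28 ± 0.30 (adjusted p = 1.08e-08). The samples of each group lay almost at the same level. Il6, the driver of the acute-phase response, had levels of -8.20 and -7.84 in P0 and -0.88, -1.01, -0.47 and -1.65 in T-LM P6, at least 30.9-fold higher (adjusted p = 0.000243), and the related Il11 rose by at least 25.4-fold (adjusted p = 8.12e-06). Tnfsf13b, the B-cell activating factor, rose by at least 7.06-fold (adjusted p = 2.05e-09). Il1b had a change of 4.06 ± 1.01 just outside the threshold (adjusted p = 0.0105).

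A run of 4 receptor genes of the interleukin 1 family, neighbours among the tested genes and picked out after their values were seen, rose together. Untested genes may lie between them. Il1r1, the receptor of interleukin 1, had levels of -4.68 and -4.93 in P0 and -2.90, -2.19, -2.77 and -2.99 in T-LM P6, a change of 2.09 ± 0.44 (adjusted p = 0.00276). Il1rl1, the receptor of interleukin 33, had levels of -8.29 and -7.57 in P0 and -2.89, -2.36, -2.49 and -2.58 in T-LM P6, at least 10.4-fold higher (adjusted p = 5.13e-07). Il18r1 rose by at least 3.11-fold (adjusted p = 4.18e-07), and its partner Il18rap was called (adjusted p = 0.000593) with 2 of 4 lines above background. Il1r1 alone of the 4 was measured in P0, so the others could be tested only through T-LM arrays.

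Of 24 acute-phase and complement genes, 7 rose. Serping1, the inhibitor of C1, had levels of -6.99 and -7.81 in P0 and -2.14, -2.63, -2.38 and -2.59 in T-LM P6, at least 11.5-fold higher (adjusted p = 3.17e-05), and C4b rose by at least 4.83-fold (adjusted p = 2.03e-06). Cfb, which activates the alternative pathway, rose by at least 5.03-fold (adjusted p = 1.06e-08), so that both an inhibitor and activators were among the called genes. Of 17 genes of antigen presentation 2 rose, the class II chains H2-Ab1 (at least 12.2-fold, adjusted p = 2.89e-05) and H2-Eb1 (at least 6.32-fold, adjusted p = 1.21e-07). Class II chains show peptides to helper T cells and are best known from antigen-presenting cells. The interferon-stimulated list had 1 call of 25, Oasl1 (1.35 ± 0.32, adjusted p = 0.0069), and a median change of -0.50, and Oas2 had a change of 2.02 ± 0.93 (adjusted p = 0.196).

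Of 18 immune checkpoint and natural killer cell ligand genes, 6 rose and 1 fell. Cd200, a brake on myeloid cells, had levels of -8.13 and -7.73 in P0 and -2.80, -2.51, -3.21 and -3.81 in T-LM P6, at least 7.33-fold higher (adjusted p = 0.000308). Arg1, which degrades arginine, had levels of -8.07 and -7.62 in P0 and -2.22, -3.68, -2.69 and -3.45 in T-LM P6, at least 7.72-fold higher (adjusted p = 0.000591). Ulbp1, a ligand of the activating receptor NKG2D, had levels of -4.95 and -4.83 in P0 and -5.91, -5.52, -5.66 and -6.21 in T-LM P6 and fell by 0.93 ± 0.20 (adjusted p = 0.00354). The groups did not overlap for any of the 3, and 2 of the 7 calls held under every alternative that tested them.

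Hypoxia and respiratory chain genes had median changes near 0. Of 35 hypoxia and glycolysis genes, 5 rose, with a median change of 0.19. Slc16a3, the exporter of lactate, had levels of -8.38 and -8.03 in P0 and -0.12, 0.71, -0.81 and -1.37 in T-LM P6, at least 47.1-fold higher (adjusted p = 8.3e-05). Car9, the carbonic anhydrase known as a marker of clear cell renal carcinoma and of hypoxia, had levels of -6.91 and -7.65 in P0 and -3.32, -3.89, -3.35 and -3.61 in T-LM P6, at least 5.33-fold higher (adjusted p = 1.09e-06). The oxygen sensor Egln3 rose by at least 3.96-fold (adjusted p = 0.000886) and the mitochondrial adenylate kinase Ak4 by at least 4.02-fold (adjusted p = 0.00441). Slc16a3 and Ak4 were highest in replicate 2 and lowest in replicate 4, whereas Car9 was lowest in replicate 2. Hexokinase 2 had a change of 1.22 ± 0.50 and was not called (adjusted p = 0.136).

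Of 35 respiratory chain genes, 2 rose and 1 fell, and the median change was -0.21. Ndufa4l2, a hypoxia-linked relative of a complex IV subunit, had levels of -7.33 and -7.73 in P0 and -2.06, -3.08, -2.19 and -2.26 in T-LM P6, at least 11.8-fold higher (adjusted p = 5.08e-06). Cox6a2, the muscle form of a cytochrome c oxidase subunit, had levels of -0.95 and -0.72 in P0 and 1.24, 0.74, 0.88 and 1.17 in T-LM P6, a change of 1.84 ± 0.20 (adjusted p = 2.73e-06). Ppargc1a, the coactivator that drives mitochondrial biogenesis, had levels of -3.53 and -3.29 in P0 and -6.11, -5.88, -5.73 and -6.01 in T-LM P6 and fell by 2.52 ± 0.35 (adjusted p = 5.47e-05). These 3 calls held under every alternative that tested them.

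Lipid genes went both ways. Of 31 genes of lipid transport, storage and fatty acid metabolism, 5 rose and 6 fell, and of 24 cholesterol genes 1 rose and 2 fell (median changes -0.05 and -0.63). Fabp5 and Fabp4, fatty acid binding proteins, rose by at least 56.0-fold (adjusted p = 0.000336) and by 5.12 ± 0.50 (adjusted p = 6.47e-07). Apoe rose by at least 10.1-fold (adjusted p = 0.00246) and lipoprotein lipase (Lpl) by at least 4.93-fold (adjusted p = 0.00511, 1 of 2 probes called). On the falling side, Gpd1, which links glycolysis to glycerol lipids, had levels of -0.34 and -0.65 in P0 and -3.01, -2.75, -3.03 and -3.09 in T-LM P6 and fell by 2.48 ± 0.46 (adjusted p = 0.000856). Acacb, the acetyl-CoA carboxylase that restrains fatty acid oxidation, fell by 2.26 ± 0.40 (adjusted p = 0.000572), and the phospholipid transfer protein Pltp by 2.08 ± 0.28 (adjusted p = 3.87e-05). Plb1, a phospholipase, was among the 10 largest falls of all genes, with levels of -1.44 and -1.18 in P0 and -4.12, -4.88, -4.37 and -3.95 in T-LM P6 (adjusted p = 6.04e-07).

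In the cholesterol pathway, Fdps had levels of 2.54 and 2.79 in P0 and 1.75, 1.33, 1.26 and 1.62 in T-LM P6 and fell by 1.18 ± 0.24 (adjusted p = 0.0025). Sqle, squalene epoxidase, had levels of 1.51 and 1.10 in P0 and 0.30, -0.16, 0.25 and 0.30 in T-LM P6 and fell by 1.13 ± 0.28 (adjusted p = 0.00885). None of the 3 cholesterol calls held under every alternative that tested it. Of 30 genes of the endoplasmic reticulum and integrated stress responses, 2 rose and 3 fell. Ddit3, the CHOP transcription factor, had levels of -1.55 and -1.13 in P0 and 0.63, 0.08, 0.54 and 0.59 in T-LM P6, a change of 1.80 ± 0.34 (adjusted p = 0.00125). The serine synthesis enzymes Psat1 and Phgdh fell by 1.05 ± 0.18 (adjusted p = 0.0006) and 0.92 ± 0.19 (adjusted p = 0.00257), each on 1 of 2 probes, and Chac1, which breaks down glutathione, by 1.40 ± 0.29 (adjusted p = 0.00228). None of these 5 calls held with slide as a fixed block.

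Drug efflux and xenobiotic genes held the largest group of falls. Of 33 tested, 4 rose and 10 fell, with a median change of -0.51. The 3 efflux genes Abcb1a, Abcb1b and Abcb4, neighbours among the tested genes, rose, of which the first pair encodes P-glycoprotein in mice. Abcb1a levels were -8.12 and -7.80 in P0 and -3.24, -2.54, -2.57 and -2.72 in T-LM P6, Abcb1b levels were -8.10 and -7.71 in P0 and -3.08, -2.67, -2.88 and -2.87 in T-LM P6 and Abcb4 levels were -8.42 and -7.99 in P0 and -2.80, -2.07, -2.74 and -2.50 in T-LM P6. All 3 were at background in P0 and tight in T-LM P6, and rose by at least 9.1-fold (adjusted p = 8.01e-11), 8.45-fold (adjusted p = 1.03e-08) and 10.8-fold (adjusted p = 1.34e-09). Their sequences are alike, so a probe of one may also bind another.

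Most falling members were enzymes of detoxification. Maoa, monoamine oxidase A, had levels of -0.26 and -0.43 in P0 and -3.32, -3.04, -3.51 and -3.45 in T-LM P6 and fell by 2.98 ± 0.28 (adjusted p = 3.83e-07). Selenop, the selenium carrier, had levels of 1.28 and 0.35 in P0 and -1.85, -2.32, -1.95 and -2.00 in T-LM P6 and fell by 2.85 ± 0.40 (adjusted p = 4.91e-05). The carboxylesterase Ces2g had levels of -1.89 and -1.55 in P0 and -4.32, -4.43, -4.43 and -4.36 in T-LM P6 and fell by 2.66 ± 0.33 (adjusted p = 1.41e-05). In each the 4 lines were close and all below P0. The glutathione transferase Gsta3 fell by 2.75 ± 0.42 (adjusted p = 0.000124) with a P0 pair nearly 2 log2 units apart. Called members of 2 gene clusters lay next to each other among the tested genes, which was seen after the values were known. In the mu class of glutathione transferases, Gstm1 levels were 1.86 and 1.90 in P0 and -0.16, -0.82, -0.26 and -0.23 in T-LM P6, a fall of 2.24 ± 0.29 (adjusted p = 2.41e-05), and Gstm2, Gstm3 and Gstm4 fell by 1.13 ± 0.22, 1.13 ± 0.23 and 1.48 ± 0.29 (1 of 2 tested probes of Gstm4 called). In the Cyp3a cluster, Cyp3a11 levels were -2.06 and -2.86 in P0 and -4.32, -4.84, -4.75 and -4.71 in T-LM P6, a fall of 2.20 ± 0.47 (adjusted p = 0.00328), and Cyp3a16, Cyp3a41b and Cyp3a59 fell by 2.30 ± 0.50, 2.12 ± 0.48 and 2.05 ± 0.37. Copies within both clusters are near-identical in part, and the array cannot tell which of them gave the signal.

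Runs of this kind were counted over all tested symbols placed in gene order. Of the 898 higher genes, 241 (26.8%) lay next to another higher one, where 13.9% of all tested symbols lay next to a higher gene. Of the 195 lower genes, 21 (10.8%) had a lower neighbour, against 3.16% of all. The longest runs, of 7 higher genes each, were the multi-copy Slx family on the X chromosome and the Gm2022 to Pramel51 group, whose copies are too alike for the probes to separate. Slx levels were 0.03 and 0.10 in P0 and 2.68, 2.43, 2.47 and 2.78 in T-LM P6, a change of 2.53 ± 0.24 (adjusted p = 4.13e-07). A run of 5 on the X chromosome held Xlr4a, Xlr3a, Xlr3b and Xlr4b, of which Xlr4a had levels of -7.15 and -7.82 in P0 and -4.02, -3.94, -3.92 and -3.93 in T-LM P6, at least 4.01-fold higher (adjusted p = 2.71e-09). In the germline and early embryo list, 9 of 19 tested rose, 4 of them Xlr genes, and the Dmrtc1c2 fall, at least 10.1-fold (adjusted p = 0.000124), was the single call in the other direction.

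Retinoid and prostaglandin genes held called members at several steps. Of 17 retinoid genes 6 rose, with a median change of 2.17 (0.57 with dim members at their bound): besides Dhrs3, chemerin (Rarres2) by at least 12.7-fold (adjusted p = 0.00094) and Aldh1a2, which makes retinoic acid, by at least 5.77-fold (adjusted p = 0.00128). Of 15 prostaglandin genes, 6 rose and 2 fell. Ptgs2, the inducible cyclooxygenase, had levels of -8.24 and -7.82 in P0 and -2.19, -0.84, -2.07 and -3.27 in T-LM P6, at least 14.6-fold higher (adjusted p = 6.89e-05). Ptgis, prostacyclin synthase, had levels of -4.35 and -4.71 in P0 and -0.77, -0.60, -0.90 and -0.69 in T-LM P6, a change of 3.79 ± 0.56 (adjusted p = 9.36e-05), and the prostacyclin receptor Ptgir rose by at least 2.93-fold (adjusted p = 3.42e-07). Ptgds, prostaglandin D synthase, had levels of -2.59 and -1.71 in P0 and -6.09, -6.84, -6.06 and -5.69 in T-LM P6 and fell by 4.02 ± 0.38 (adjusted p = 3.83e-07), and the receptor Ptger3 fell by 1.41 ± 0.33 (adjusted p = 0.00658). The synthases of prostacyclin and of prostaglandin D2 thus went in opposite directions. Alox5ap, which serves leukotriene synthesis, had levels of -4.62 and -4.22 in P0 and -1.23, -1.41, -2.67 and -1.24 in T-LM P6, a change of 2.79 ± 0.35 (adjusted p = 1.67e-05), and Cysltr1, a leukotriene receptor, fell by 3.45 ± 0.41 (adjusted p = 8.64e-06).

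Of 28 TGF-beta and BMP genes, 9 rose, with a median change of 0.98. Grem1, a BMP antagonist, had levels of -8.39 and -7.86 in P0 and -1.14, -0.44, -1.83 and -2.58 in T-LM P6, at least 22.0-fold higher (adjusted p = 0.000148). Fst, which binds activin, had levels of -8.30 and -7.99 in P0 and -2.02, -2.11, -2.72 and -2.59 in T-LM P6, at least 12.1-fold higher (adjusted p = 0.000103). Bmp4, a ligand, had levels of -8.20 and -7.80 in P0 and -2.63, -2.18, -2.93 and -3.16 in T-LM P6, at least 9.37-fold higher (adjusted p = 7.54e-08). Antagonists and ligand were thus measured in all 4 lines and in neither P0 sample. Fstl1 rose by at least 48.0-fold (adjusted p = 0.000464), and Tgfb1, Tgfb2 and Tgfb3 were tested and not called.

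Of 18 genes of MAPK feedback and the Ras pathway, 5 rose, all of them measured in at least 1 P0 sample. Dusp6, a phosphatase of ERK, had levels of -5.68 and -4.12 in P0 and -1.83, -2.16, -2.07 and -2.23 in T-LM P6, a change of 2.83 ± 0.44 (adjusted p = 0.000182). Etv4 had levels of -3.55 and -3.34 in P0 and -1.54, -0.95, -1.05 and -1.47 in T-LM P6, a change of 2.19 ± 0.34 (adjusted p = 0.000182), and the related factor Etv5 had a change of 2.91 ± 0.54 (adjusted p = 0.0009). Ier3 had levels of -1.78 and -1.90 in P0 and 0.09, 0.38, 0.27 and 0.13 in T-LM P6, a change of 2.06 ± 0.24 (adjusted p = 6.09e-06). Dusp6, Etv4 and Etv5 are textbook targets of ERK, and in each all 4 lines lay above both P0 samples. The EGF receptor ligands Hbegf (1.63 ± 0.23, adjusted p = 5.82e-05) and Ereg (at least 3.7-fold, adjusted p = 0.0069) rose, while Egfr had a change of 2.50 ± 0.73 that was not called (adjusted p = 0.0285), although 1 of its 3 tested probes was. Of 26 immediate-early genes 7 rose, among them Fos (2.54 ± 0.59, adjusted p = 0.00647), whose P0 levels of -5.73 and -2.70 were 3 log2 units apart, and Maff (2.27 ± 0.26, adjusted p = 3.94e-06).

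In the fibroblast, platelet-derived and vascular growth factor list, 5 of 22 rose and 1 fell, with Fgf7 (at least 6.94-fold, adjusted p = 0.00211) and Vegfc (at least 4.27-fold, adjusted p = 0.00736) among the rises and the hormone Fgf21 as the fall, with levels of -0.69 and 0.16 in P0 and -2.19, -2.48, -2.68 and -1.96 in T-LM P6 (change -2.06 ± 0.41, adjusted p = 0.0017). In the insulin-like growth factor axis 4 of 12 rose, including the binding proteins Igfbp4 (at least 2.89-fold, adjusted p = 2.15e-07) and Igfbp5 (at least 1.65-fold, adjusted p = 0.00363). In Wnt signalling 3 of 19 rose and 1 fell: Dkk3 by at least 5.46-fold (adjusted p = 0.000811) and Rspo3 by at least 3.55-fold (adjusted p = 0.00658) were higher, and Rnf43, which removes Wnt receptors, fell by 1.89 ± 0.42 (adjusted p = 0.0048). The single call among 8 Notch genes was Mfng, which adds sugars to Notch, at least 1.62-fold higher (adjusted p = 5.26e-05). None of the calls in the EGF, insulin-like, fibroblast and other growth factor, Wnt and Notch lists held under every alternative that tested it, and raising dim values to a floor left none of the 4 Wnt and none of the 4 insulin-like growth factor calls.

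**Figure D4:**
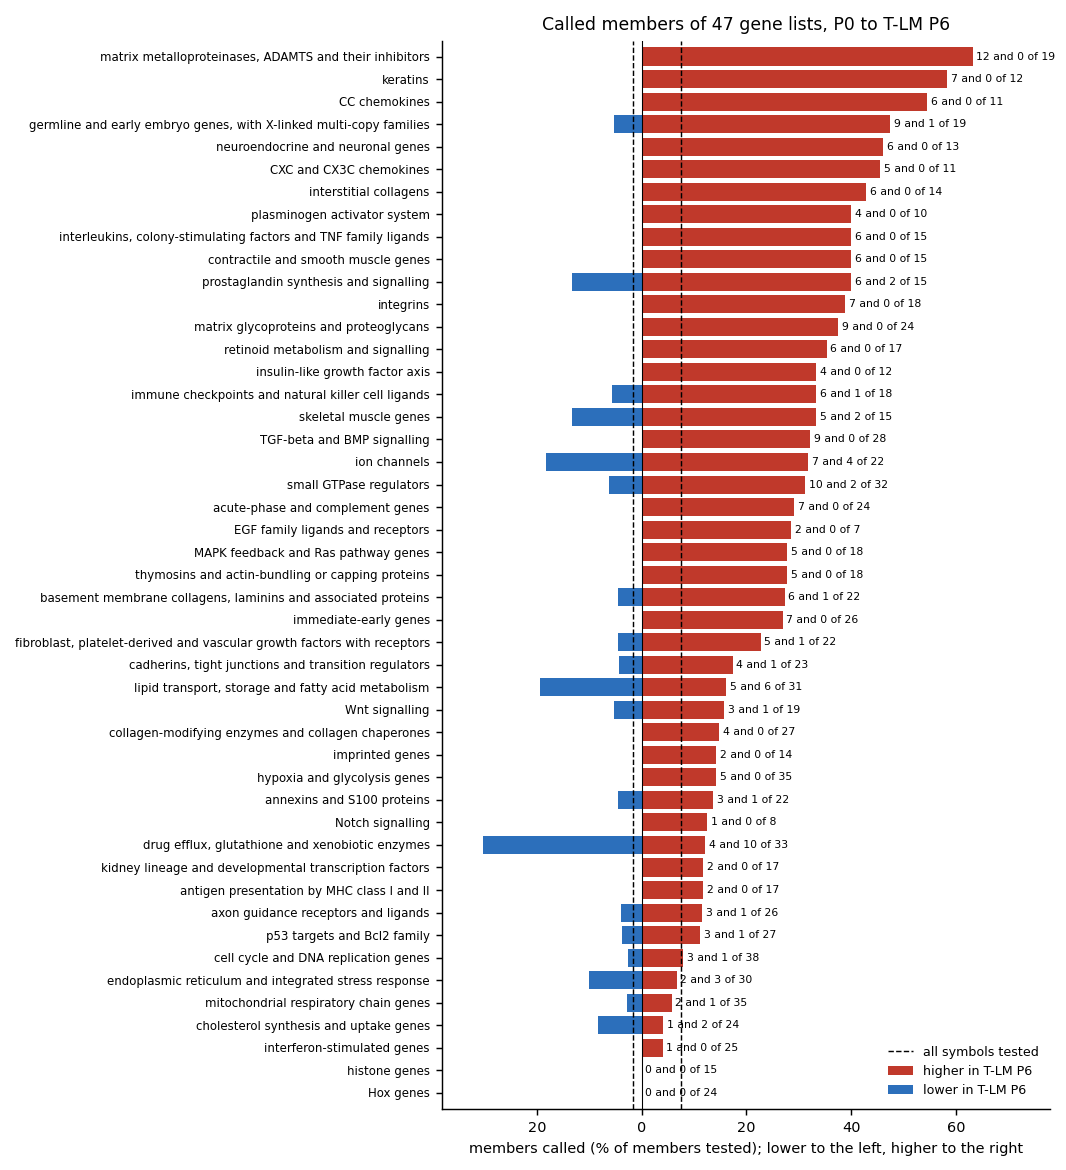
Share of tested members called higher (red, to the right) and lower (blue, to the left) in 47 gene lists, in percent of members tested, with the numbers higher and lower of those tested beside each bar. Dashed lines mark the shares over all 12046 symbols, 7.45% higher and 1.62% lower. Protease, keratin and chemokine lists stand at the top, and drug efflux and xenobiotic enzymes have the longest blue bar. Members at background in P0 were tested only where T-LM arrays measured them, so the order of the red bars is not read as a result.

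Cell cycle genes had a median change of -0.18, with 3 rises and 1 fall in 38 tested (10.5% called, against 9.07% of all symbols). Ccnd1, cyclin D1, had levels of -4.48 and -3.20 in P0 and -2.29, -0.98, -1.60 and -1.97 in T-LM P6, a change of 2.13 ± 0.50 (adjusted p = 0.00649), and Ccnd2 rose by at least 3.71-fold (adjusted p = 0.00355). Of the inhibitors of their kinases, Cdkn2b rose by at least 2.6-fold (adjusted p = 0.00761), and Cdkn2c had levels of -1.40 and -1.87 in P0 and -3.58, -3.17, -3.22 and -3.22 in T-LM P6 and fell by 1.66 ± 0.26 (adjusted p = 0.000171). None of the 4 cell cycle calls held under every alternative that tested it. Among 27 p53 targets and Bcl2 family genes, 3 rose and 1 fell (14.8% called, against 9.07% of all symbols). Bbc3, the death-promoting PUMA, had levels of -2.21 and -2.11 in P0 and -3.39, -3.43, -3.34 and -3.44 in T-LM P6. It fell by 1.24 ± 0.21 (adjusted p = 0.000325), while Bcl2a1d and Bcl2l15 rose by at least 13.2-fold (adjusted p = 0.00174) and 249.9-fold (adjusted p = 2.71e-09).

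Transport and neuronal genes were mixed. Of 22 ion channel, pump and water channel genes, 7 rose and 4 fell. Fxyd5, a regulator of the sodium pump, had levels of -5.10 and -5.27 in P0 and -1.08, -0.91, -1.04 and -1.19 in T-LM P6, a change of 4.13 ± 0.33 (adjusted p = 4.15e-08). The water channels parted: Aqp1 of the proximal tubule rose by at least 4.48-fold (adjusted p = 0.000577), whereas Aqp5 and Aqp3 fell by 2.09 ± 0.46 (adjusted p = 0.00397) and 1.46 ± 0.23 (adjusted p = 0.000232). Of 31 neuroendocrine and neuronal genes on the array, 13 were tested and 6 of these rose from background. A member at background in P0 was tested only where T-LM arrays measured it, so this share is not read as a result. The rises included the peptide genes Cck (at least 14.4-fold, adjusted p = 0.00098), Penk (at least 6.46-fold, adjusted p = 0.001) and Calcb (at least 3.57-fold, adjusted p = 5.75e-07). Of 26 axon guidance genes, 3 rose and 1 fell (15.4% called, against 9.07% of all symbols). Among them, Robo2 and Sema3c rose by at least 3.14-fold (adjusted p = 9.76e-06) and 3.56-fold (adjusted p = 0.000236), and Sema3b fell by 1.52 ± 0.28 (adjusted p = 0.000836).

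Among the lists of cell identity, the Hox list had no call. The kidney lineage list had 11.8% of its tested members called, against 9.07% of all symbols. Of 17 kidney lineage and developmental transcription factors, 2 rose: Wt1, the Wilms tumour factor, had levels of -5.50 and -7.93 in P0 and -2.05, -2.95, -2.29 and -2.60 in T-LM P6, a change of 4.24 ± 0.58 (adjusted p = 4.21e-05), and Irx1 rose by at least 1.57-fold (adjusted p = 0.000634). In limma 0 of 24 Hox genes were called, and 6 had an unadjusted p under 0.05. The nearest were Hoxb4 (1.08 ± 0.31, adjusted p = 0.0234) and Hoxb9 (-0.95 ± 0.31, adjusted p = 0.0524). For histone genes limma called 0 of 15, with 5 at an unadjusted p under 0.05.

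Among the largest falls outside these lists, Themis, a T-cell signalling gene, had levels of -4.38 and -4.42 in P0 and -8.33, -8.93, -8.49 and -8.20 in T-LM P6, at least 4.99-fold lower (adjusted p = 5.12e-07). Lrrc26, a potassium channel subunit, had levels of -2.91 and -3.03 in P0 and -6.22, -6.34, -6.80 and -6.37 in T-LM P6 and fell by 3.47 ± 0.35 (adjusted p = 7.96e-07), and Cep112, a centrosomal gene, had levels of -3.21 and -3.52 in P0 and -6.14, -6.60, -6.45 and -5.95 in T-LM P6 and fell by 2.92 ± 0.32 (adjusted p = 2.44e-06). For all 3 the lines lay below both P0 samples, with Themis not well above background in any line and Cep112 in 1 of 4, so that the size given for Cep112 rests on background values. Of 20691 probes, 9.02% differed between T-LM P6 and the kidney-derived lines of the same passage (KPT P6, 5 samples), 6.31% with a higher T-LM P6 level. Of the 10 largest rises and 10 largest falls 17 were among them, as were 53.7% of the 1085 called symbols tested. These genes were chosen on the same T-LM P6 arrays, so nothing is read from this excess.

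The intermediate passages P2 to P5 gave the later part of the course by which these levels were reached. The T-LM P2 mean lay closer to P0 than to T-LM P6 in 546 of the 898 higher genes, and the T-LM P3 mean in 598. At T-LM P4 this was so for 174 and at T-LM P5 for 277. For the 195 lower genes the counts were 111, 85, 24 and 42. These passages shared the fit and the P0 arrays with the comparison, so the counts are a description. In both directions the largest drop in these counts lay between P3 and P4, and the counts were higher again at P5. Single genes took different courses. Maoa had a mean of -1.38 in T-LM P1 and means of -0.95, -0.14, -3.04 and -2.31 in T-LM P2 to P5. Its mean was thus below P0 at P1, near P0 again at P3, and lowest of these passages at P4. Xlr4a had means of -3.76, -3.64, -3.95 and -4.77 in T-LM P2 to P5 and had left the P0 level by P2. Tyrobp, the myeloid adaptor, had means of -6.60, -8.56, -1.26 and -6.10 in T-LM P2 to P5, and Col1a1 had means of -4.32, -6.11, -0.07 and -0.26 in T-LM P2 to P5. At T-LM P1 their means were -5.81 and -0.02, and the T-LM P6 mean of Col1a1 was -0.23. Within T-LM P1, Col1a1 levels were -6.24 in replicate 1 and 0.66 to 2.03 in replicates 2 to 5. T-LM P5 replicate 1 stood apart for Tyrobp and Col1a1, and without it, a step chosen after the data were seen, their P5 means were -7.08 and -0.997. These genes of leukocytes and of matrix went up and down between passages with or without it, whereas Krt19 had means of -4.07, -3.25, -2.54 and -1.06 in T-LM P2 to P5, with no fall at any of these steps.

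**Figure D5:**
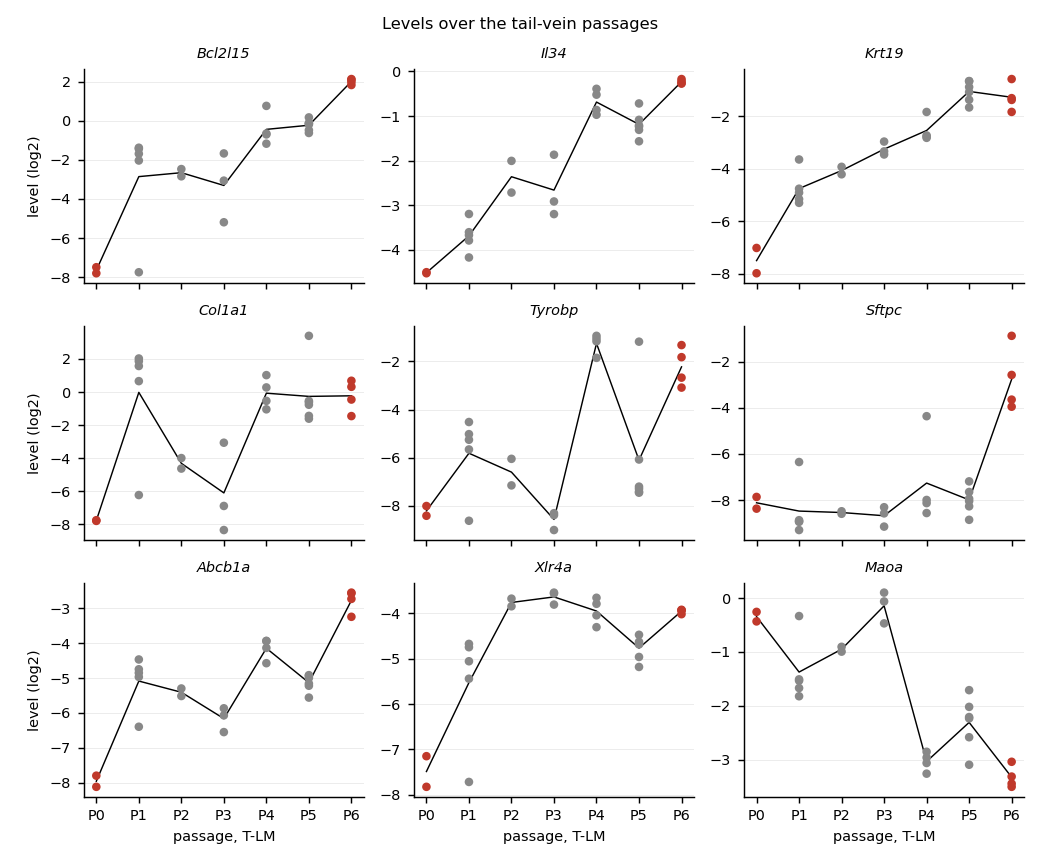
Levels (log2, vertical axis) of 9 genes in P0 and in T-LM samples of P1 to P6 (horizontal axis), 1 point per sample, with the line through the passage means. P0 and T-LM P6, the groups compared, are red; Bcl2l15, Il34 and Krt19 are higher at P4 to P6 than at earlier passages, Col1a1 and Tyrobp swing between them, Sftpc is high at P6 alone apart from single earlier samples, and Maoa falls between P3 and P4.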

How the data were processed

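RNA of RENCA cell lines had been labelled with Cy5 and hybridised to 1-colour Agilent mouse arrays of 62976 spots. The deposited scanner files hold the intensity of each spot, which per the file headers Agilent Feature Extraction had corrected for background, and deposited flags (other values) for control spots and for spots well above background. The authors' series table holds normalized log2 values of the same arrays, on a scale that followed the log2 median signal (median r over arrays 0.999) with column medians of 6.24 to 6.28, and was used as an alternative.

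Controls (3671 spots) were left out, spots of a probe were averaged to 55681 probes, and log2 of the processed intensity was scaled to the 75th percentile of each array over the 11287 probes well above background on all 70 arrays. Probes flagged as well above background on 2 or more of the fitted arrays were tested with limma 3.58.1 (R 4.3.3, statmod 1.5.0) by lmFit and eBayes, with 1 coefficient per group over P0 and T-LM P2 to P6 (21 arrays) and Benjamini-Hochberg adjustment over all probes. The contrast was T-LM P6 minus P0. Of several probes of a symbol, that with the highest mean level was used. Symbols were assigned by looking up the accession of each probe among RefSeq and Ensembl identifiers of mouse genes. Probes that matched no symbol or more than 1 were left without, so that 28020 probes carried 1 and 27661 none. Tables were made in Python 3.11.15 with pandas 2.3.3. The fit was tested on simulated data.

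Named were the 10 largest rises and falls without overlap, the 4 largest called rises and falls of each list, the uncalled member with the largest change, the 2 nearest members of lists without a call, and cell type markers. Genes picked otherwise are marked as such or given without values. Some genes that these rules name are not reported here. The members and lists were chosen with earlier results of these data known. Lists carried no test, and their counts stand beside those of all symbols. Promoter stretches are RefSeq sequence of GRCm38.p6. The number of arrays limits the precision. The alternatives covered scaling, background, filters, samples in the fit, slide, replicate block, RNA quality, threshold and leaving out each replicate. Planned normexp correction used the median in place of the mean signal, which the files used here do not hold.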

Additional observations from a re-analysis of the deposited data

Results flagged for a closer look

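Of 199 genes whose change or level is given, 9 had a T-LM P6 sample far from the other 3, where chance flags about 1 in 20 groups of 4. The low sample was replicate 2 for Ddit3 (0.08), Gstm1 (-0.82) and Sqle (-0.16), replicate 1 for Cdkn2c (-3.58), Maff (-1.71) and Xlr4a (-4.02), and replicate 3 for Alox5ap (-2.67). The high sample was replicate 4 for Rasgrp2 (-2.53) and replicate 3 for Hoxb9 (-2.53). For Xlr4a the other 3 lines lay so close together that a small gap was enough.

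The 20 genes with the largest rises and falls were compared between T-LM P6 and KPT P6, the lines of the sixth passage through kidney primary tumours (5 samples), in a limma fit with P0. Of 20691 probes tested, 1866 (9.02%) differed between the routes at an adjusted p of 0.01, and 17 of the 20 genes were among them, chosen on the same T-LM P6 arrays. The T-LM P6 level was above the KPT P6 level by 3.78 ± 0.26 (SE) for Tmsb4x, 4.69 ± 0.16 for Bcl2l15, 5.76 ± 0.49 for Ccl6 and 6.69 ± 0.45 for Cxcl14. It was above by 2.73 ± 0.32 for Dhrs3, 3.35 ± 0.50 for Myl9, 2.14 ± 0.13 for Cryaa and 2.58 ± 0.30 for Fn1. Their adjusted p ran from 1.04e-08 to 0.000489, and the KPT P6 means of these genes lay between the P0 and the T-LM P6 means.

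Among the falls, the T-LM P6 minus KPT P6 difference was -2.46 ± 0.23 for Ptgds, -1.82 ± 0.20 for Lrrc26, -2.60 ± 0.18 for Cysltr1, -2.25 ± 0.20 for Plb1, -1.76 ± 0.14 for Maoa and -1.67 ± 0.17 for Cep112, of which Cep112 passed background in 1 and Lrrc26 in 3 of the 4 T-LM P6 samples. It was -1.39 ± 0.16 for Themis, -1.51 ± 0.22 for Lipn and -1.20 ± 0.20 for Plekhg4, which were not well above background in T-LM P6, so that these 3 sizes carry little weight. Anxa8 (0.66 ± 0.30, adjusted p = 0.198), Acta2 (1.80 ± 0.44, adjusted p = 0.0152) and Dmrtc1c2 (-0.35 ± 0.23, adjusted p = 0.399) did not pass the threshold in this limma fit.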

How the results depend on the processing

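The P0 to T-LM P6 comparison called 1562 probes. The count moved to 2689 at an adjusted p of 0.05, 2437 with the repeat arrays and a term for the late slide, 833 with a floor under dim values, 628 with slide as a fixed block and 416 among probes well above background on all arrays of the fit, where fewer probes were tested. Leaving out 1 replicate gave 683 to 1350, with 683 without P0 replicate 1 and 789 without P0 replicate 2. The replicate block gave 1465 calls, and 1279 against 1866 in the T-LM P6 against KPT P6 comparison, which fell to 979 with the floor. The labels tie these numbers to no animal or day, and the replicate 1 minus 2 differences of P0 and T-LM P6 correlated at -0.06 over probes. Apart from the floor, which makes dim values equal, and the smaller set of probes, the cause of these moves was not tested. Of the 185 called genes whose values are given, 71 passed the threshold in the same direction under every alternative that tested them and none reversed. Over all 1093 called symbols this was 201, and the genes named were chosen for large changes. Under the floor 110 of the 185 calls stayed past the threshold and 72 did not. The rest lay at the floor in both groups and were not judged under it. The slide block lost 68 of the 185 calls. The share of called members was above that of all symbols in 43 of the 47 lists, and in 32 to 44 under the alternatives. With 2 P0 arrays, the sizes of genes at background in P0 are bounds.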
